A study of Mus musculus with 34 samples.

Results

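The plasminogen activator system was followed through 5 genes on 34 one-colour Agilent mouse arrays: Plat and Plau, the tissue-type and urokinase-type activators, Plaur, the urokinase receptor, and the inhibitors Serpine2 and Serpinb2. These are 5 of the 33370 gene names on the array, chosen by name, and all 5 had a probe; Plat, Plau, Plaur and Serpinb2 had 2 probes each and were read from the brighter, and Serpine2 had 1. RNA came from C57BL6/j mice of 6 to 8 weeks, in 17 groups of 2 arrays. The groups were whole testes, FACS-sorted wild-type Sertoli cells, FACS-sorted Nanos3KO Sertoli cells (called N3KO in the titles), and wild-type Sertoli cells kept in culture with vehicle or with retinoic acid (RA), which the labels give as 1 mM for 24 hours. The other 12 groups were seminiferous tubules grouped by epithelial stage as I-III and IV-VI, called the earlier ones here, and VII-VIII and IX-XII, either untreated or dissected 5 days after lentivirus had been injected into the testis. The virus carried Venus, a fluorescent protein that served as the control, or dnRARa, whose name stands for a dominant negative retinoic acid receptor alpha. The titles write the third stage group as VI-VIII where the source labels have VII-VIII, the name used here. The labels name neither the sorting marker, the promoter in the virus, the cells that it reached, nor separate animals or cultures for the replicates, so p-values measure the spread between arrays, which may be technical.

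Plasminogen activators cut the zymogen plasminogen into plasmin, a broad serine protease that degrades fibrin and matrix proteins. The receptor Plaur holds urokinase at the cell surface, while serpins trap and inactivate the activators. Sertoli cells, the somatic nurse cells of the seminiferous epithelium, are a known source of plasminogen activator, and the activity has long been tied to the stages at which spermatids are released and preleptotene spermatocytes cross the blood-testis barrier. Retinoic acid acts through nuclear receptors that bind DNA, and it drives spermatogonial differentiation and meiotic entry around the same stages.

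Promoter sequence was matched for 3 of the 5 members, Plaur, Serpinb2 and Serpine2, and not for Plat and Plau. All the matched members are shown, without regard to their levels. The windows below are the 250 bases before the start of each gene, from RefSeq on mouse build GRCm38.p6, read 5′ to 3′ along the gene, with matches to the searched letters in capitals. Plaur lies on the plus strand (chr7:24462233-24462482), Serpinb2 on the plus strand (chr1:107511173-107511422) and Serpine2 on the minus strand (chr1:79858666-79858915).
Plaur: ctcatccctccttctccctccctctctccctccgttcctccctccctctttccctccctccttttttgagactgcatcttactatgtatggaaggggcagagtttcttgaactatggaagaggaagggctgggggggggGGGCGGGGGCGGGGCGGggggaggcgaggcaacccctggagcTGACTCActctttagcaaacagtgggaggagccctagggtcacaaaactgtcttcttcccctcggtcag
Serpinb2: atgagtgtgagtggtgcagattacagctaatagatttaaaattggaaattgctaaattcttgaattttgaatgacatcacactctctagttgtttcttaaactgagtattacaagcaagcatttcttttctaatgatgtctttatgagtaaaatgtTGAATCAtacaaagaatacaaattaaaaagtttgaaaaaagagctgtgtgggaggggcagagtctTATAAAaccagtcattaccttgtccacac
Serpine2: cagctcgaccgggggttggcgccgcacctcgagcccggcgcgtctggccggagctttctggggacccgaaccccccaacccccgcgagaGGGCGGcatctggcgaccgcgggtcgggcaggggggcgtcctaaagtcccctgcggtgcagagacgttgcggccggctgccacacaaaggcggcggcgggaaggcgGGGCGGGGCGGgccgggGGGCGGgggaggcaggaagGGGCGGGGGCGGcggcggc
Both strands were searched for 4 motifs, the AP-1 site TGANTCA, the retinoid receptor half-site AGGTCA, the Sp1 box GGGCGG and the TATA box TATAAA. The Plaur window held TGACTCA at 69 bases before the start and 3 overlapping or adjacent GGGCGG boxes at 111, 105 and 100 bases. The Serpinb2 window held TGAATCA at 94 bases and TATAAA at 29 bases before the start. Serpine2 had 6 GGGCGG boxes, the nearest at 13 bases and the farthest at 161 bases before the start, some of them overlapping. None of them held AGGTCA, nor did a second, overlapping Serpinb2 window. Among the 32851 mouse promoter windows of the same length, 6.75% held the AP-1 letters, 14% AGGTCA, 32.7% GGGCGG and 12.4% TATAAA. These are letter matches in 1 short window, and no binding was measured.

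All levels below are the log2 of a probe's processed signal after subtraction of the 75th percentile of its array, so 0 is a probe as bright as that percentile and 1 unit is a 2-fold difference. Levels of different probes were not compared. A gene was tested in a comparison where 1 or more of its groups had the probe well above background on each array; tests are moderated limma tests with Benjamini-Hochberg adjustment over all genes tested, and a gene passed at an adjusted p under 0.05. Per array, 54.9% to 74.1% of probes were above background, and replicate arrays correlated at 0.974 to 0.996. The knocked-out gene, Nanos3, was not well above background on either N3KO array and was at least 3.47-fold lower there than in sorted wild-type cells. The 8 spermatid markers, summed, were at 8.87 to 9.52 in sorted wild-type cells, and at -1.21 to -0.92 in N3KO cells. The sorts also held other somatic transcripts: the 7 Leydig markers summed to 10.47 and 10.5 in the wild-type sorts and to 9.02 and 9.73 in the N3KO sorts, against 7.55 to 7.57 in whole testes. The 13 Sertoli markers were measured in every group, with 13 of 13 above background on both arrays of each group except in untreated tubules, where 12 were. The wild-type sorts lay apart in their sum, at 6.51 and 8.38.

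Plat, the tissue-type activator, was well above background on all 34 arrays and rose and fell with stage in tubules. In untreated tubules its level was -1.02 and -1.74 at stages I-III, -1.70 and -1.60 at IV-VI, 0.90 and 1.25 at VII-VIII, and -0.44 and -0.07 at IX-XII. Both arrays of stages VII-VIII lay above every other untreated array, and the I-III and IV-VI arrays overlapped. From IV-VI to VII-VIII Plat rose 6.62-fold (log2 difference 2.73, SE 0.21, adjusted p = 2.82e-07, limma). It then fell by 1.33 on the log2 scale to IX-XII (SE 0.21, adjusted p = 7.92e-05) and by 1.12 from there to I-III (SE 0.20, adjusted p = 0.000815). With only the arrays of those last groups in the fit, the last step had an adjusted p of 0.145. The step from I-III to IV-VI was -0.27 (SE 0.21, adjusted p = 0.382), and -0.63 with an adjusted p of 0.0498 without untreated I-III replicate 2. Many genes changed at these steps: 42.3% of all tested genes passed from IV-VI to VII-VIII, 49.7% from VII-VIII to IX-XII, 34.6% from IX-XII to I-III and 22.3% from I-III to IV-VI. Stages VII-VIII and IX-XII of the untreated arm shared a slide, so the fall between them is a within-slide value, while the other untreated steps cannot be told apart from slide. In bulk samples fewer cells of a type and less RNA per cell cannot be told apart.

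**Figure D1:**
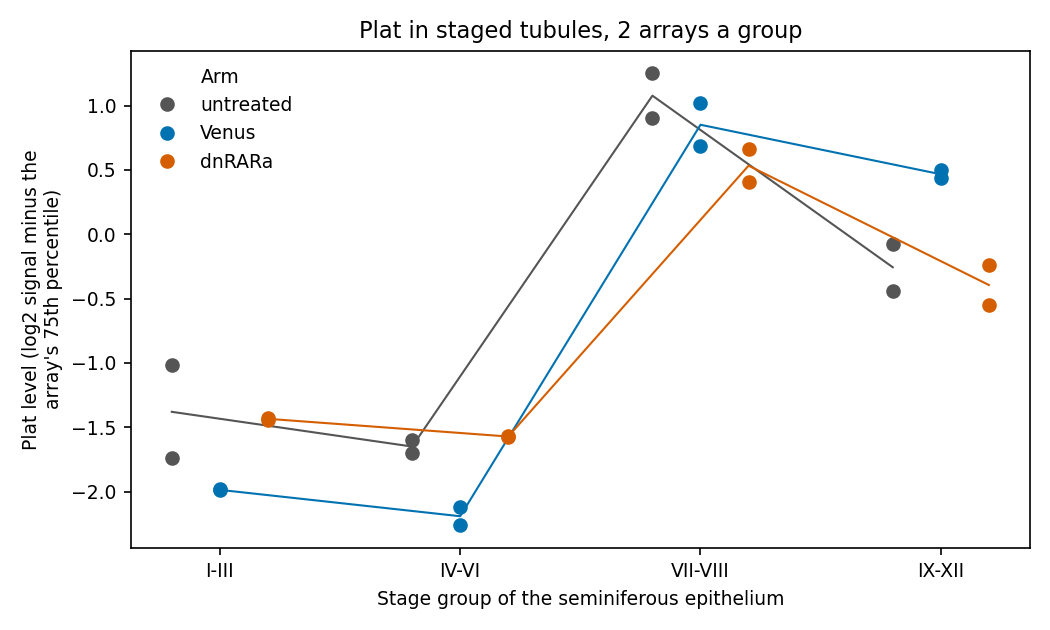
Plat level on each array (points) and group mean (lines) by stage group, in untreated, Venus and dnRARa tubules; the vertical axis is log2 signal minus the array's 75th percentile. All arms are lowest at I-III and IV-VI and highest at VII-VIII, and the Venus arm spans the widest range, from -2.26 to 1.02.

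With Venus, Plat was also highest at VII-VIII. It was at -1.98 and -1.99 at stages I-III, at -2.26 and -2.12 at IV-VI, at 1.02 and 0.68 at VII-VIII and at 0.50 and 0.44 at IX-XII. All 4 arrays of the later stage groups lay above all 4 of the earlier ones. Plat rose 8.24-fold from IV-VI to VII-VIII (log2 difference 3.04, SE 0.21, adjusted p = 3.48e-07), where 33.1% of all tested genes passed, and the rise was 3.28 on the slide of replicate 1 and 2.80 on that of replicate 2. The step from VII-VIII to IX-XII was -0.39 (95% interval -0.83 to 0.06, adjusted p = 0.174; 36.5% of genes passed). From IX-XII to I-III it fell by 2.45 (SE 0.21, adjusted p = 6.80e-07; 38.4% passed). From I-III to IV-VI Plat differed by -0.21 (adjusted p = 0.876), and 0% of genes passed that step in limma, 0 of 22622, with 2034 at an unadjusted p under 0.05.

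In dnRARa tubules Plat ranged from -1.58 to 0.66. Its level was -1.44 and -1.43 at I-III, -1.58 and -1.56 at IV-VI, 0.40 and 0.66 at VII-VIII and -0.55 and -0.24 at IX-XII. No array of stages VII-VIII overlapped another stage. The rise from IV-VI to VII-VIII was 4.30-fold (log2 difference 2.11, SE 0.21, adjusted p = 5.45e-06; 31.6% of genes passed), 1.98 and 2.23 on the 2 slides. Plat fell by 0.93 to IX-XII (SE 0.21, adjusted p = 0.00251; 39% passed) and by 1.04 from there to I-III (SE 0.21, adjusted p = 0.00131; 33.2% passed), with no called step from I-III to IV-VI (-0.14, adjusted p = 0.789; 9.96% passed). Over all 4 stage groups, Plat passed the test for any stage difference in each arm, with F = 73.1 in untreated, 117 in Venus and 44.5 in dnRARa tubules, and adjusted p of 2.42e-07, 5.19e-08 and 2.69e-06. The same test was passed by 69.1%, 53.9% and 55% of all tested genes.

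Set against Venus, dnRARa tubules had lower Plat at stages IX-XII, and the sign of the difference was opposite at the earlier stages, where it did not pass. The difference dnRARa minus Venus was 0.55 at I-III (SE 0.21, adjusted p = 0.564), 0.62 at IV-VI (SE 0.21, adjusted p = 0.125), -0.32 at VII-VIII (SE 0.21, adjusted p = 0.601) and -0.86 at IX-XII (SE 0.21, adjusted p = 0.029). Among the 4 stage groups the last passed, a 1.82-fold lower level in dnRARa tubules, where 4.69% of all tested genes passed; the shares at the other stages were 0.00896%, 3.34% and 1.54%. With replicate as a block the genes passing went from 2 to 31 at I-III and from 355 to 554 at VII-VIII. At IX-XII the dnRARa arrays did not overlap the Venus arrays, and the difference was -1.04 and -0.68 on the 2 scan days. Each scan day held both arms, but on separate slides, so arm and slide cannot be told apart in any dnRARa minus Venus difference. This call did not hold under several settings: the adjusted p was 0.0843 with normexp background, 0.0583 with no detection filter, 0.0518 with only these 4 arrays, and 0.0748 to 0.196 without any 1 of them. The mean over the stages was -0.00 (SE 0.11, 95% interval -0.23 to 0.22, adjusted p = 0.994), in a comparison that 12.3% of genes passed.

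**Figure D2:**
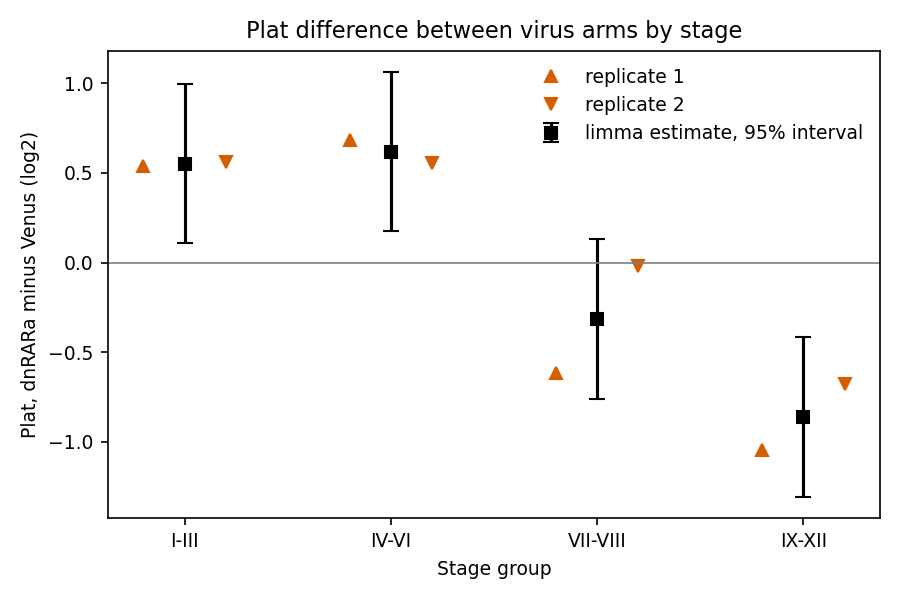
Plat difference dnRARa minus Venus (log2, vertical axis) in each stage group; squares are limma estimates with 95% intervals and triangles are the differences within replicate 1 and within replicate 2, which were scanned on separate days. Both triangles are above 0 at I-III and IV-VI and below 0 at VII-VIII and IX-XII.

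The change of this effect with stage was tested directly. Between adjacent stage groups the interaction did not pass, at -0.94 from IV-VI to VII-VIII (SE 0.30, adjusted p = 0.279) and -0.54 from VII-VIII to IX-XII (SE 0.30, adjusted p = 0.911), tests that 0.319% and 0.298% of genes passed. A contrast of the later (VII-VIII, IX-XII) with the earlier (I-III, IV-VI) stage groups, chosen after these values were seen, gave -1.17 (SE 0.21, adjusted p = 0.02), where 0.974% of genes passed (235 genes, and 382 with replicate as a block). It was -1.44 on the scan day of replicate 1 and -0.91 on that of replicate 2, and the other Plat probe gave -1.57 (adjusted p = 0.0116). The adjusted p was 0.081 with normexp background, and it rose to between 0.051 and 0.0686 without any 1 of 9 of the 16 arrays: Venus I-III replicates 1 and 2, IV-VI replicate 1, VII-VIII replicate 1 and IX-XII replicates 1 and 2, and dnRARa I-III replicate 2, IV-VI replicate 2 and IX-XII replicate 1.

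Cell type markers were read at the same stages. The summed Sertoli markers were at 6.85 to 6.96 in untreated IV-VI tubules and at 6.69 to 6.76 at VII-VIII, in the opposite direction to Plat, with 7.27 to 7.47 and 7.05 to 7.13 in the Venus arm. The 8 spermatid markers were at 9.44 to 9.58 and 9.78 to 9.91 in the same untreated groups. The 6 measured spermatogonial markers, a list that holds the RA-responsive gene Stra8, also went up, from 4.15 to 4.23 at IV-VI to 6.10 to 6.23 at VII-VIII. The peritubular myoid list was higher at VII-VIII too, at 3.76 to 3.87 against 3.64 to 3.67, and the macrophage list lower, at 1.18 to 1.25 against 1.32 to 2.03. Arrays overlapped for the spermatocyte, Leydig and endothelial lists. The part of these lists in the Plat rise was not tested. At IX-XII, where Plat was lower with dnRARa, the Sertoli sum was 6.95 to 7.16 with dnRARa and 6.80 to 6.82 with Venus. There 4 other lists were lower with dnRARa, as Plat was, with no overlap of the arrays: spermatogonia at 4.55 to 4.84 against 4.97 to 4.98, Leydig at 4.45 against 4.90 to 5.09, peritubular myoid at 4.65 to 4.82 against 4.91 to 5.07 and macrophage at 2.73 to 2.88 against 2.95 to 3.15. Their part in the Plat difference was not tested.

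Over all stages, Venus minus untreated in Plat was -0.16 by the chosen probe (SE 0.11, 95% interval -0.39 to 0.06, adjusted p = 0.182), a comparison that 67% of genes passed. That mean joins stage groups of opposite sign. Venus was lower at I-III (-1.99 against -1.38), IV-VI (-2.19 against -1.65) and VII-VIII (0.85 against 1.08). It was higher at IX-XII (0.47 against -0.26), without overlap of the arrays. The dnRARa mean at IX-XII was -0.39, and its arrays overlapped the untreated ones. Single stages were not tested against untreated tubules. Over all stages the other Plat probe gave -0.75 (adjusted p = 7.06e-05), so the level between these arms depends on the probe. The arms also lay on separate slides and days. Likewise untreated tubules and whole testes differed by 0.16 (SE 0.16, adjusted p = 0.442; 52.8% of genes passed) by the chosen probe and by 1.20 (adjusted p = 1.49e-05) by the other. The probes correlated at 0.979 over the 34 arrays, which share slides and scaling. By the other probe the rise from IV-VI to VII-VIII was 2.52 in untreated, 3.33 in Venus and 1.95 in dnRARa tubules.

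In the testis and Sertoli cell groups Plat rose at each step from tissue to culture. It was at -0.65 and -0.76 in whole testes, 0.62 and 1.02 in sorted wild-type cells, 1.86 and 2.34 in N3KO cells, 2.69 and 2.62 in vehicle cultures and 4.04 and 3.97 in RA cultures. No array of 1 group overlapped another. Plat was 2.88-fold higher in sorted wild-type cells than in whole testes (log2 difference 1.53, SE 0.20, adjusted p = 0.000274), on 1 slide, in a comparison that 79.1% of genes passed. The 7 endothelial markers summed to 4.32 to 4.85 in these sorts and 1.19 to 1.23 in whole testes, and endothelial cells are a known source of Plat; their part in the difference was not tested. It was 2.43-fold higher in N3KO than in wild-type sorts (1.28, SE 0.19, adjusted p = 0.00168; 48.3% of genes passed), with an adjusted p of 0.0502 when only those 4 arrays were fitted. Vehicle cultures exceeded wild-type sorts 3.57-fold (1.84, SE 0.19, adjusted p = 0.000132; 74.7% passed) and N3KO sorts 1.47-fold (0.55, SE 0.19, adjusted p = 0.0363; 69.2% passed). The last call was lost with only the arrays compared (adjusted p = 0.117) and without N3KO replicate 1 (0.31, adjusted p = 0.131), vehicle replicate 1 (adjusted p = 0.137) or vehicle replicate 2 (adjusted p = 0.0997). The other probe gave larger culture differences, 2.73 from wild-type and 1.51 from N3KO sorts. N3KO, wild-type sorts and cultures lay on separate slides, and the cultures on a separate scan day, so slide and group cannot be told apart there.

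Retinoic acid raised Plat in cultured Sertoli cells 2.55-fold (log2 difference 1.35, SE 0.19, 95% interval 0.90 to 1.80, adjusted p = 0.00928). All 4 arrays were on 1 slide. Plat was the only member that passed, 1 of 5, while 5.47% of all tested genes passed. The size held without any 1 of the 4 arrays, at 1.31 to 1.38, but the adjusted p then ran from 0.0721 to 0.0861, so the call needs all 4. By the other probe the rise was 1.33. Textbook RA targets responded on the same arrays: Stra8, a gene of meiotic entry, rose 15.1-fold (adjusted p = 1.70e-05), Rarb, a retinoid receptor, rose 11.2-fold (adjusted p = 0.0256), and Cyp26a1, an RA-degrading enzyme that was not above background with vehicle, was at least 664-fold higher (adjusted p = 0.000427).

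**Figure D3:**
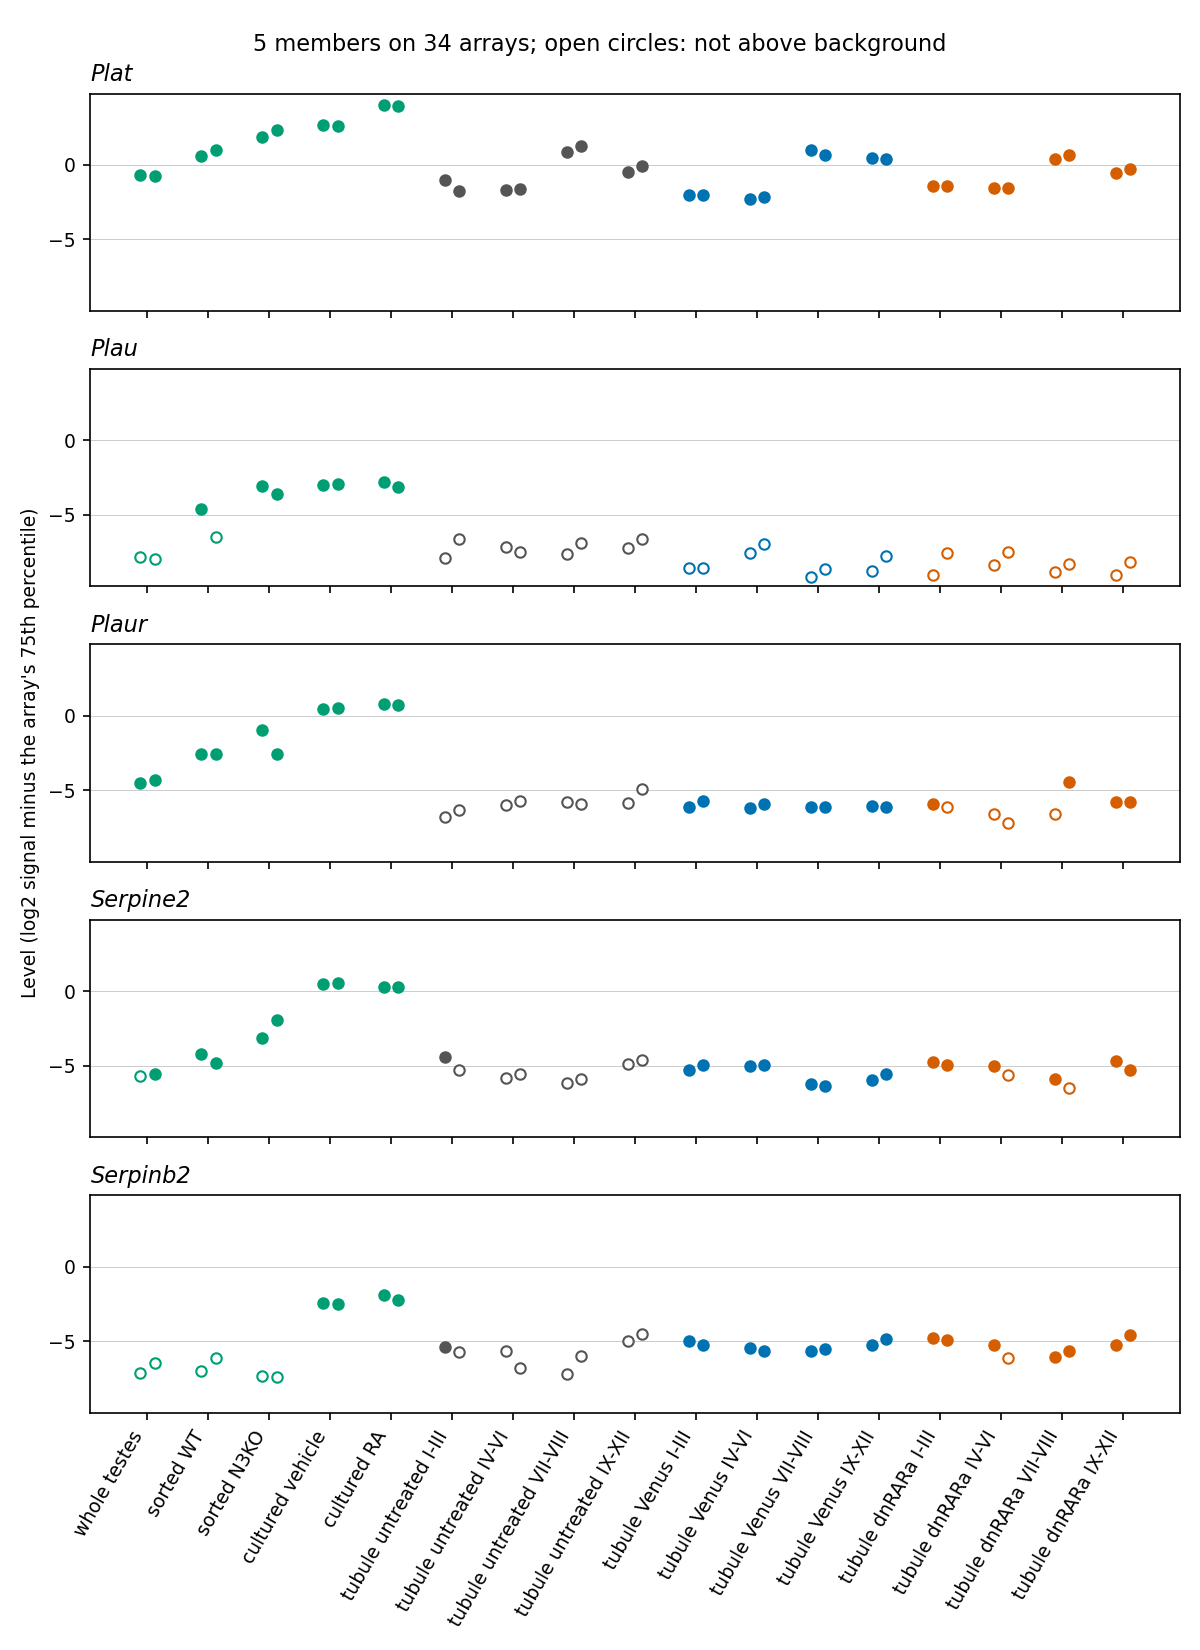
Level of each member on the 2 arrays of each of the 17 groups (log2 signal minus the array's 75th percentile, the same axis in all panels); filled points are well above background and open points are not. Plat is filled on all 34 arrays, while Plau is filled on 7, all of them sorted or cultured cells.

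Plau, the urokinase-type activator, was not detected in any tubule. It was above background on 0 of 24 tubule arrays, where its signal ran from -9.18 to -6.63, and on neither whole-testis array (-7.83 and -7.99), so no stage or arm comparison could be tested. In sorted wild-type cells it was at -4.63 and, not above background, -6.50. N3KO cells had -3.08 and -3.57, vehicle cultures -3.00 and -2.93, and RA cultures -2.82 and -3.12. The N3KO and culture arrays all lay above both wild-type sorts. RA cultures overlapped N3KO sorts and vehicle cultures, while the vehicle arrays lay above the N3KO arrays. Plau was 4.71-fold higher in N3KO than in wild-type sorts (log2 difference 2.24, SE 0.54, adjusted p = 0.013) and 6.07-fold higher in vehicle cultures than in wild-type sorts (2.60, SE 0.54, adjusted p = 0.00371), where only 1 of 2 wild-type arrays measured it. With only the arrays compared, the N3KO difference had an adjusted p of 0.0961. The sizes depend on the wild-type arrays: the N3KO difference was 3.17 without wild-type replicate 1 and 1.30 without replicate 2, and the culture difference 3.53 and 1.67. Cultures and N3KO sorts differed by 0.37 (95% interval -0.91 to 1.64, adjusted p = 0.567), and RA by -0.01 (95% interval -1.27 to 1.26, adjusted p = 0.998).

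The second Plau probe gave another picture. It was above background on 2 of 34 arrays, at -3.05 in sorted wild-type replicate 2, the array on which the brighter probe was not, and at -6.34 in vehicle replicate 2. In N3KO cells it stayed at -6.58 and -6.57, not above background. The correlation between the Plau probes was 0.604 over 34 arrays, so each Plau difference rests on 1 probe. By the second probe the differences from wild-type sorts had the opposite sign, -1.74 for N3KO sorts and -1.70 for vehicle cultures.

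Plaur, the urokinase receptor, was above background on all 10 testis and Sertoli cell arrays. It was at -4.48 and -4.32 in whole testes, -2.54 and -2.55 in wild-type sorts, -0.97 and -2.53 in N3KO sorts, 0.44 and 0.50 in vehicle cultures and 0.78 and 0.73 in RA cultures. Cultures lay above all sorts, and sorts above whole testes; the N3KO arrays lay far apart. Plaur was 3.60-fold higher in wild-type sorts than in whole testes (1.85, SE 0.44, adjusted p = 0.00608), and 8.11-fold (3.02, SE 0.43, adjusted p = 0.00062) and 4.66-fold (2.22, SE 0.43, adjusted p = 0.00313) higher in vehicle cultures than in wild-type and N3KO sorts. The N3KO value was 3.0 without N3KO replicate 1 and 1.44 without replicate 2. Between N3KO and wild-type sorts it differed by 0.80 (95% interval -0.23 to 1.83, adjusted p = 0.171). That difference did pass with quantile scaling (1.23), median scaling (1.37), normexp background (0.71), the other probe (1.70) and without N3KO replicate 2 (1.58). With RA it differed by 0.28 (SE 0.43, adjusted p = 0.843), which passed with only the 4 culture arrays (adjusted p = 0.0221).

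In tubules Plaur was near background, measured on 12 of 24 arrays at -6.19 to -4.47. These were 8 of 8 Venus, 4 of 8 dnRARa and 0 of 8 untreated arrays. No untreated stage step could therefore be tested, nor the dnRARa steps from I-III to IV-VI and from IV-VI to VII-VIII. None of the stage or arm tests that were run within the tubules passed. Venus against untreated, at -0.13 (adjusted p = 0.633), did pass with normexp background (-0.86, adjusted p = 0.0158). One array, dnRARa VII-VIII replicate 2 at -4.47, stood above replicate 1 at -6.56; without replicate 1, the dnRARa minus Venus difference at VII-VIII was 1.66 (adjusted p = 0.023), its later-minus-earlier interaction 1.44 (adjusted p = 0.04), the interaction from IV-VI to VII-VIII 2.48 (adjusted p = 0.0201) and the dnRARa step from VII-VIII to IX-XII -1.31 (adjusted p = 0.00947). The test for any stage difference with dnRARa passed without either of these arrays (adjusted p = 0.000378 and 0.0181). Whole testes exceeded untreated tubules at least 1.5-fold (measured means -4.40 and -5.91, adjusted p = 0.0025), but with normexp background the sign turned (0.19, adjusted p = 0.737), and by the mean of probes it did not pass (-1.03, adjusted p = 0.0646).

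Serpine2, also called protease nexin-1, inhibits thrombin, urokinase and tissue-type activator, and it was higher in cultured than in freshly sorted cells. It was at -5.70, not above background, and -5.52 in whole testes, -4.23 and -4.84 in wild-type sorts, -3.16 and -1.92 in N3KO sorts, 0.52 and 0.56 in vehicle cultures and 0.27 and 0.28 in RA cultures. No group overlapped another. Vehicle cultures exceeded wild-type sorts 33.8-fold (5.08, SE 0.39, adjusted p = 2.61e-05) and N3KO sorts 8.43-fold (3.08, SE 0.39, adjusted p = 0.000375). N3KO sorts exceeded wild-type sorts 4.0-fold (2.0, SE 0.39, adjusted p = 0.00524), with an adjusted p of 0.0635 when only those arrays were fitted. Without N3KO replicate 1 and replicate 2 in turn this difference was 2.62 and 1.38, and that of cultures from N3KO sorts 2.46 and 3.70. The difference of wild-type sorts from whole testes, 1.07 (SE 0.39, adjusted p = 0.0368), was lost with median scaling (0.94), normexp background (0.44), no detection filter, and without whole testes replicate 1, whole testes replicate 2 or wild-type replicate 1. RA changed it by -0.27 (SE 0.38, adjusted p = 0.827), which passed with only the culture arrays (adjusted p = 0.018).

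In virus-treated tubules the group mean of Serpine2 was lowest at VII-VIII, where that of Plat was highest. In the Venus arm it was at -5.25 and -4.95 at I-III, -5.04 and -4.97 at IV-VI, -6.21 and -6.32 at VII-VIII and -5.94 and -5.54 at IX-XII. The VII-VIII arrays were the lowest. It fell by 1.26 on the log2 scale from IV-VI to VII-VIII (SE 0.30, adjusted p = 0.00484), and passed the test for any stage difference (F = 7.59, adjusted p = 0.00708). In the dnRARa arm it rose 2.29-fold from VII-VIII (-5.86 and, not above background, -6.50) to IX-XII (-4.66 and -5.31; log2 difference 1.19, SE 0.30, adjusted p = 0.00569; any stage difference F = 7.91, adjusted p = 0.00598). These signals lay close to background, and with normexp background neither stage test passed (adjusted p = 0.453 for Venus and 0.9998 for dnRARa, and a dnRARa step of 0.00). The dnRARa step was also lost without dnRARa VII-VIII replicate 2 (0.87, adjusted p = 0.0769) or IX-XII replicate 1 (0.87, adjusted p = 0.0824), and the dnRARa test for any stage difference without the former (adjusted p = 0.101). Untreated tubules measured Serpine2 on 1 of 8 arrays, so no untreated stage step and no difference from whole testes could be tested. Venus against untreated, at -0.20 (adjusted p = 0.266), did pass with normexp background (-1.07, adjusted p = 0.000823). The difference dnRARa minus Venus was 0.27 at I-III, -0.31 at IV-VI, 0.09 at VII-VIII and 0.75 at IX-XII. None of these passed, and the smallest adjusted p was 0.2, at IX-XII. Neither the mean over stages (0.20, adjusted p = 0.442) nor any interaction passed. Of the 4 members tested in the virus arms, Plat and Serpine2 passed the test for any stage difference in each arm, and Plaur and Serpinb2 did not, beside 53.9% of all genes with Venus and 55% with dnRARa.

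Serpinb2, plasminogen activator inhibitor type 2, was measured in culture and not in fresh cells. It was not above background on any of the 6 arrays of whole testes and sorts, where its signal was -7.40 to -6.09. Vehicle cultures had -2.40 and -2.49 and RA cultures -1.86 and -2.21. Vehicle cultures were therefore at least 8.95-fold above wild-type sorts (adjusted p = 3.66e-05) and at least 8.97-fold above N3KO sorts (adjusted p = 2.25e-05), against the dimmest signal called above background on those arrays. The limma p-values belong to the measured log2 differences, 4.09 and 4.92, which use signal not above background. RA differed from vehicle by 0.41 (95% interval -0.37 to 1.20, adjusted p = 0.629). In tubules it was above background on 16 of 24 arrays, where it was at -6.03 to -4.55. Untreated tubules measured it on 1 of 8 arrays, so no untreated stage step could be tested. None of the stage or arm tests that were run passed. The test for any stage difference did pass with only the Venus arrays (adjusted p = 0.0424) and, with dnRARa, without IV-VI replicate 1 (adjusted p = 0.0474). Venus exceeded untreated by 0.46 (adjusted p = 0.0625), a difference taken mostly against untreated signal not above background. It passed by the other probe (1.11, adjusted p = 0.000958), which measured 0 of 8 untreated arrays. By the mean of detected probes it also passed (0.79, adjusted p = 0.0032). The difference was 0.60 without untreated IV-VI replicate 1 and 0.61 without VII-VIII replicate 2, and turned to -0.90 (adjusted p = 0.00431) with normexp background.

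In culture against wild-type sorts, 5 of 5 members tested passed, all higher. Of all genes there 74.7% passed in either direction, 7116 higher and 9612 lower. Against N3KO sorts 4 of 5 passed, beside 69.2%. In N3KO against wild-type sorts 3 of 4 tested members passed, beside 48.3%, and in wild-type sorts against whole testes 3 of 3, beside 79.1%. These shares also count both directions. Some members were above background on both arrays of the higher group alone, which favours a higher value. They were Serpinb2 in culture against wild-type and against N3KO sorts, Plau in culture and in N3KO sorts against wild-type sorts, and Serpine2 in wild-type sorts against whole testes. By the second Plau probe both differences from wild-type sorts had the opposite sign. Markers of other cells moved with these comparisons. The 6 measured macrophage markers summed to 7.35 and 8.19 in N3KO sorts, 4.85 to 5.90 in wild-type sorts and 2.84 to 2.89 in vehicle cultures. Macrophages are known to express Plau and Plaur, and their part in the higher Plau of N3KO sorts was not tested. The 7 endothelial markers were at 2.80 and 4.74 in N3KO sorts and at -0.50 to -0.47 in vehicle cultures, where Plat was higher than in either sort. The 5 peritubular myoid markers were at 6.14 to 6.18 in vehicle cultures, 4.60 to 5.60 in N3KO sorts and 3.74 and 6.56 in the wild-type sorts, and their part in the culture differences was not tested.

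**Figure D4:**
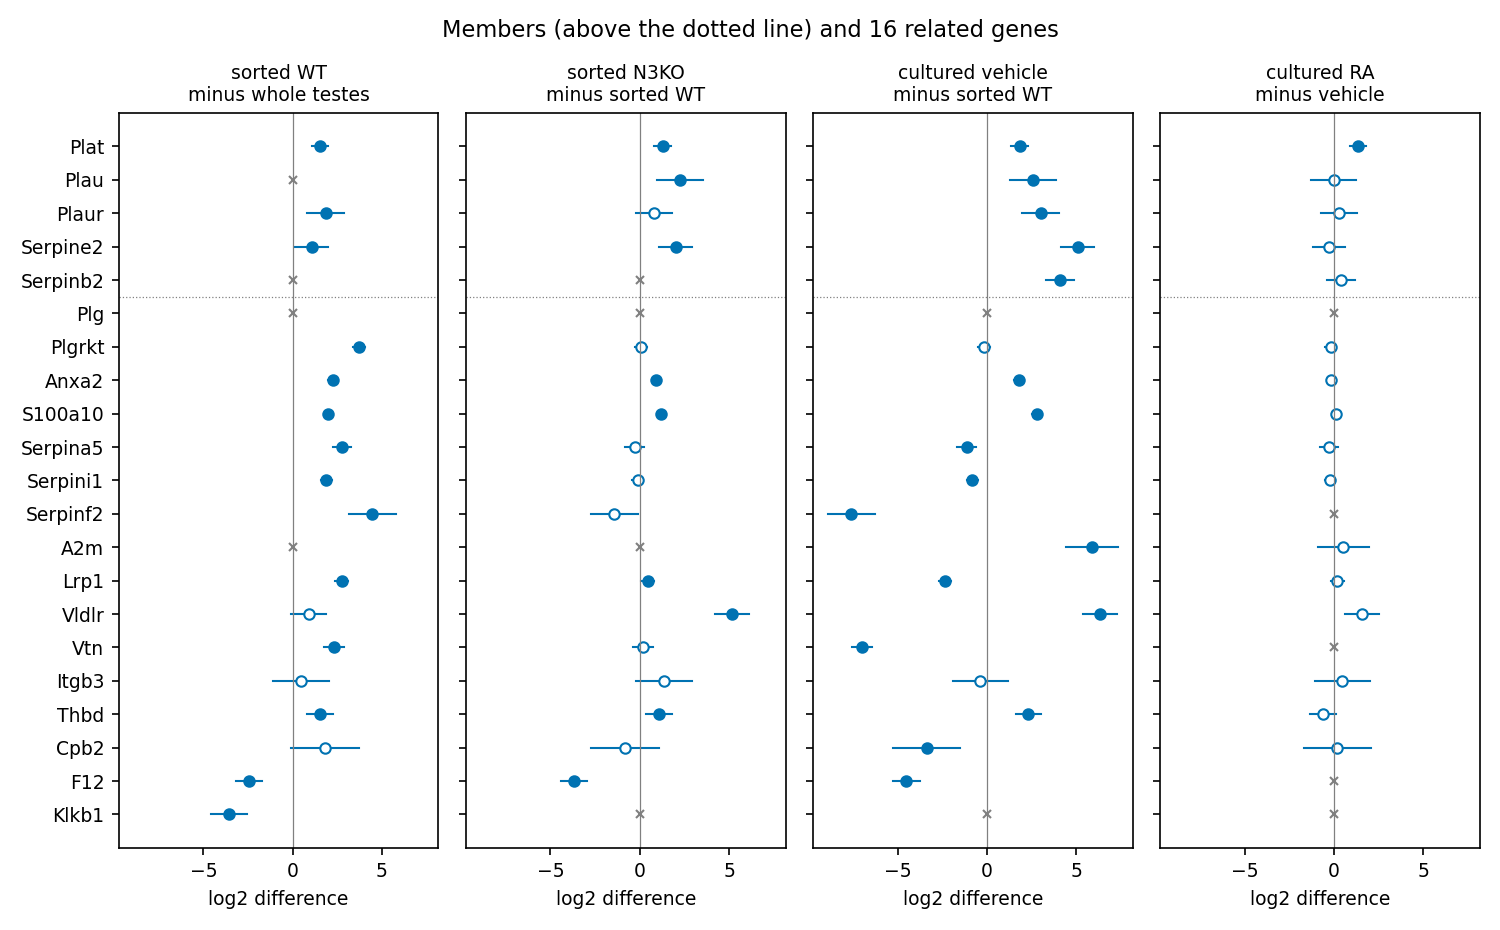
Log2 difference with 95% interval (horizontal axis) for the 5 members and 16 related genes in 4 comparisons; filled points passed at an adjusted p under 0.05, open points did not, and crosses mark genes not tested because no group was above background. In culture against sorted cells the members all lie to the right of 0, and with RA only Plat is filled.

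The other genes of the pathway were taken from a list of 17, all measured. Plg, plasminogen itself, a liver protein, was not above background on either array of any testis or Sertoli cell group. Among plasminogen receptors, Anxa2 and S100a10, which form the annexin A2 heterotetramer, were 3.48-fold and 6.92-fold higher in vehicle cultures than in wild-type sorts (adjusted p = 9.63e-06 and 9.74e-07). Vtn, or vitronectin, a plasma and matrix protein, was at least 27.2-fold lower in those cultures (adjusted p = 7.94e-07). Of 15 list genes tested there, 6 were higher and 7 lower, with a median difference of -0.37, beside -0.22 for all genes. Against N3KO sorts 6 of 14 were higher and 7 lower (median -0.45, all genes -0.00). There Vtn was at least 31-fold lower and Lrp1, the endocytic receptor that clears activator-serpin complexes, 6.81-fold lower (adjusted p = 1.57e-06 and 8.08e-06), while S100a10 was 3.03-fold higher (adjusted p = 1.43e-05).

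The sorts differed in the same list. Against whole testes, 9 of 15 genes were higher in wild-type sorts and 2 lower (median 1.87, all genes -0.07), led by Plgrkt, a plasminogen receptor (log2 difference 3.71, adjusted p = 1.82e-06), Anxa2 (2.24, adjusted p = 3.82e-06), S100a10 (1.98, adjusted p = 4.09e-06) and Lrp1 (2.74, adjusted p = 5.01e-06). In N3KO against wild-type sorts 6 of 14 were higher and 1 lower (median 0.31, all genes 0.06). Vldlr, a lipoprotein receptor that also takes up activator-serpin complexes, was 36.2-fold higher (adjusted p = 5.52e-05), S100a10 2.29-fold and Anxa2 1.91-fold higher (adjusted p = 7.32e-05 and 0.000486), and F12, coagulation factor XII, at least 3.24-fold lower (adjusted p = 8.45e-05). With RA, 0 of 12 list genes passed in limma; Vldlr had the smallest p (2.96-fold, adjusted p = 0.0804).

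By stage, 9 of 14 list genes passed the test for any stage difference in untreated tubules, 7 of 17 in Venus and 8 of 17 in dnRARa tubules, beside 69.1%, 53.9% and 55% of all genes. Anxa2 had the opposite sign to Plat: it fell by 1.23 from IV-VI to VII-VIII in untreated tubules (adjusted p = 3.05e-07), by 1.15 with Venus (adjusted p = 1.43e-06) and by 0.47 with dnRARa (adjusted p = 0.0015). Klkb1, plasma prekallikrein, rose at the same step by 1.48, 1.25 and 1.35 in the 3 arms (adjusted p = 0.000267, 0.00158 and 0.000903). Lrp1 was lower by 0.63, 1.13 and 0.80 there (adjusted p = 0.0205, 0.000657 and 0.00763). At this step Plgrkt rose by 0.53 in untreated tubules (adjusted p = 0.0215), and Serpini1, or neuroserpin, an inhibitor of tissue-type activator, by 0.59 with Venus (adjusted p = 0.0215) and 0.72 with dnRARa (adjusted p = 0.00669). From VII-VIII to IX-XII, A2m, a broad protease inhibitor, was at least 12.2-fold lower with Venus (adjusted p = 7.99e-07) and fell by 2.55 with dnRARa (adjusted p = 3.12e-05), and F12 fell by 1.67, 2.07 and 2.27 in the untreated, Venus and dnRARa arms (adjusted p = 0.000321, 9.82e-05 and 3.83e-05).

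Between the virus arms, 3 of 17 list genes were higher with dnRARa at IX-XII, beside 4.69% of all genes passing in either direction: Anxa2 by 0.53 (adjusted p = 0.00521), Serpina5, protein C inhibitor, by 0.51 (adjusted p = 0.0159), and Serpini1 by 0.79 (adjusted p = 0.0219). At VII-VIII only Anxa2 passed (0.49, adjusted p = 0.018), and 0 of 16 passed at I-III and at IV-VI in limma. Over the stages 4 of 17 were higher and 2 lower, beside 12.3% of all genes, with Serpini1 (0.55, adjusted p = 0.00119), Anxa2 (0.24, adjusted p = 0.00537), Itgb3, an integrin subunit that binds vitronectin (0.52, adjusted p = 0.0101), and Serpina5 (0.22, adjusted p = 0.0188) leading. Anxa2 was also the list gene that passed the later-minus-earlier interaction (0.55, adjusted p = 0.0199), opposite in sign to Plat. Venus against untreated tubules had 9 of 17 higher and 3 lower, beside 67% of all genes passing, and untreated tubules against whole testes 2 of 15 higher and 4 lower, beside 52.8% (3680 genes higher and 7707 lower), Lrp1 among them by 1.83 (adjusted p = 2.49e-08) while Serpini1 was higher by 1.34 (adjusted p = 2.11e-07).

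Ordered by group mean, Plat was highest in RA cultures (4.01), then vehicle cultures (2.66), N3KO sorts (2.10) and untreated stages VII-VIII (1.08). Next came Venus VII-VIII (0.85), wild-type sorts (0.82), dnRARa VII-VIII (0.53) and Venus IX-XII (0.47). The arrays of untreated VII-VIII, Venus VII-VIII and wild-type sorts overlapped with their neighbours in this order, so these places are not distinct. Venus IV-VI (-2.19) and Venus I-III (-1.99) were the lowest, below all other groups and without overlap. Plau and Serpine2 were highest in vehicle cultures, Plaur and Serpinb2 in RA cultures, and for Plau those cultures overlapped.

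The genes whose group means followed Plat most closely over the 17 groups were Nfil3 (Pearson r 0.971), Atp6v1h (0.962) and Bcl3 (0.959), among 14606 candidates; the groups share slides and scaling. Over the 12 tubule groups they were Fgf18 (0.987), Tm4sf4 (0.986) and Pip5kl1 (0.979). For Plaur they were Syt12 (0.991), Rpl17 (0.987) and S100a10 (0.986), the last also a gene of the pathway list. Serpine2 was most like Cfi (0.987), Dtna (0.986) and Vcl (0.986), Serpinb2 most like Thbs1 (0.937), Ttc39c (0.936) and C1ql3 (0.930), and Plau most like Btc (0.981), Inpp5f (0.981) and Fasn (0.980), though Plau was above background on both arrays in only 3 of the 17 groups. Among members, group means over 17 groups correlated most between Plau and Plaur (0.922), and least between Plau and Serpinb2 (0.390). Over the 12 tubule groups the range was from -0.681 for Plat with Serpine2 to 0.645 for Serpine2 with Serpinb2. Plau with Plaur was at 0.01 there, where no array had Plau above background.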

How the data were processed

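Per the labels, Cy3-labelled RNA was hybridised to 34 one-colour arrays, 2 for each of 17 groups. The deposited values are intensity: the processed signal, which the authors extracted with Agilent Feature Extraction 9.5.3.1 per the file headers (9.5 per the submitters' processing notes), not scaled between arrays. The series value table holds the same numbers (ratio 1 throughout). The number of arrays limits the precision.

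Of 45018 spots, 43379 were no controls, for 41174 probes; 32 to 274 outlier spots per array were left out and replicate spots averaged. The 22951 probes matched by accession and 67 by symbol took RefSeq symbols, and 18156 kept the file's name; the files give no genome position. The probe with the highest mean signal stood for its gene. The deposited intensity was turned to log2 and each array's 75th percentile subtracted. A gene was tested where every array of some group compared had it above background. Models were fitted with limma 3.58.1 (R 4.3.3, with the package data.table, version 1.17.8), 1 for the 10 testis and Sertoli cell arrays and 1 for the 24 tubule arrays, with all 34 for tubules against testes, Benjamini-Hochberg adjustment over all genes tested and a threshold of 0.05. The method was tested on simulated data. A fold against a group not above background on either array is a lower bound, against the dimmest signal called above background there. The adjusted p beside such a fold is from the limma test of the signals as measured, not of the bound.

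The 5 members were examined in every comparison, and tests that did not pass were partly reported as a group. Of the 17 related genes, up to 4 with the smallest adjusted p were named per comparison described. Results for some genes are not reported here. Members and lists were chosen with earlier results of these data known, and nothing here is independent support for them. The later-minus-earlier contrast and the other probe of each gene were added after seeing the values. File headers place the arrays on 10 slides and 5 scan days. In the virus arms the replicate number marks the slide within an arm and the scan day across arms; deviations of same-numbered arrays correlated at 0.079 to 0.316 with Venus, 0.27 to 0.451 with dnRARa and 0.204 to 0.471 in untreated tubules, but at -0.058 to 0.073 among the testis and Sertoli cell groups. Slide and scan day were fitted as blocks where they could be told apart from the group.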

Additional observations from a re-analysis of the deposited data

Results flagged for a closer look

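The sign of the dnRARa minus Venus difference in Plat was not the same in all stage groups. Both replicates were above 0 at I-III (0.54 and 0.56) and below 0 at VII-VIII (-0.62 and -0.02, the latter close to 0), a difference of -0.87 on the log2 scale, and neither stage group passed. Opposite signs in both replicates also separated I-III from IX-XII (-1.41) and IV-VI from IX-XII (-1.48). These pairs of stage groups were not tested. Interactions between the adjacent stage groups tested did not pass in limma (adjusted p = 0.279 and 0.911). The contrast of later with earlier stage groups, -1.17, passed with an adjusted p of 0.02, but it was chosen after the values were seen, and it did not pass with normexp background (adjusted p = 0.081) or without any 1 of 9 of the 16 arrays. The cause was not tested.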

How the results depend on the processing

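Of 600 refits of Plat, 567 kept the side of the threshold and, for a difference that passed, its direction. A difference that did not pass could change sign and still count among them. With only the arrays compared, adjusted p-values were 0.0502 for Plat (1.28) and 0.0961 for Plau (2.24) in N3KO against wild-type sorts, 0.117 for Plat in vehicle cultures against N3KO sorts (0.55) and 0.145 for Plat in untreated I-III against IX-XII (-1.12). Leaving out 1 array moved Plat to 0.31 to 0.80 in cultures against N3KO, 1.31 to 1.38 with RA and -0.63 to 0.091 in untreated IV-VI against I-III. At IX-XII, dnRARa minus Venus for Plat was -0.80 with normexp background, -0.86 with no filter and with only those arrays, and -1.01 to -0.71 without 1 array. The later-minus-earlier interaction was -1.02 with normexp, and -1.26 to -1.09 without 1 array. Venus minus untreated for Plat was -0.46 by the mean of probes, -0.75 by the other probe and -0.25 to -0.072 without 1 array; tubules minus whole testes was 0.68 and 1.20. With normexp, Serpinb2 turned to -0.90 in Venus against untreated, and Plaur to 0.19 in tubules against whole testes. Causes were not tested. The replicate block changed no call of a member; with it Plat was -0.86 at IX-XII (adjusted p = 0.0302) and -1.17 in the later-minus-earlier interaction (adjusted p = 0.0213). No random block was fitted in the testis and Sertoli cell model, where each group lay on 1 slide. Counts of genes passing moved with the settings, lowest and highest in each case: N3KO against wild-type sorts 10359 (4151 to 15403), RA 1095 (375 to 7187), untreated steps in cycle order 4142 (0 to 6961), 8120 (3911 to 8766), 9388 (4440 to 10273) and 6301 (0 to 8078), Venus 0 (0 to 37), 7727 (4655 to 8374), 8447 (5246 to 11170) and 8707 (5468 to 11750), dnRARa 2145 (389 to 2616), 6881 (4017 to 7617) and, from IX-XII to I-III, 7685 (4892 to 8359). Any stage difference passed in 12715 genes with Venus (8203 to 15648) and 12880 with dnRARa (8563 to 13727). For dnRARa against Venus they were 2 (0 to 265), 747 (1 to 1088), 355 (0 to 554) and 1083 (265 to 1476) by stage, 2959 (730 to 4645) over stages, and 75 (1 to 178), 71 (5 to 167) and 235 (35 to 967) for the interactions; untreated tubules against testes had 11387 (6971 to 14532). Under median scaling the all-gene median went from -0.22 to 0.70 in cultures against wild-type sorts (higher calls 42.5% to 66.1%), from 0.06 to 0.63 in N3KO against wild-type sorts (53% to 77%), from -0.00 to 0.35 in cultures against N3KO (48.8% to 62.3%) and from -0.23 to 0.07 in tubules against testes (32.3% to 60.6%).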
